A study of Mus musculus with 40 samples.

Results

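The genes described here are the nuclear-encoded subunits of the mitochondrial respiratory chain and the ATP synthase. They were taken from the gene table by symbol stem: Nduf followed by a, b, c, s or v and a number, Sdh followed by a to d, Uqcr, Cox4 to Cox8, and Atp5. Symbols with the pseudogene mark -ps were left out, which removed 2. The rule found 83 of 35976 gene symbols, of which 36 carry a complex I stem, 4 complex II, 8 complex III, 18 complex IV and 17 complex V. The rule used names only and no measured value. It takes in a few genes that are not core subunits: Cox7a2l, known as a supercomplex assembly factor, and Atp5s and Atp5sl, which are not counted among the core subunits of the enzyme. Ndufa4 has a complex I name but is known as a subunit of complex IV.

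As background, complexes I and II pass electrons from NADH and succinate to ubiquinone, complex III passes them on to cytochrome c, and complex IV reduces oxygen. Complexes I, III and IV pump protons, and complex V uses the proton gradient to make ATP. Complex II is wholly nuclear-encoded and is also the succinate dehydrogenase of the citric acid cycle, whereas the other complexes join nuclear subunits with subunits made from mitochondrial DNA. Long-term haematopoietic stem cells are known for low mitochondrial activity and reliance on glycolysis, while erythroid precursors carry many active mitochondria.

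RNA was measured in mouse bone marrow cells by sequencing polyA RNA that had been amplified by a SMART-Seq2 method, in which whole transcripts are copied from little input. Long-term haematopoietic stem cells (LT) had 4 wild-type and 4 Dnmt3a knockout libraries, common and granulocyte-macrophage progenitors pooled as 1 population (CMP/GMP) had 4 and 4, megakaryocyte-erythroid progenitors (MEP) had 3 and 4, and c-kit+ cells, a mixed progenitor-rich preparation, had 2 wild-type libraries, 2 with Dnmt3a knockout, 2 with Sting knockout and 3 with both (double knockout, DKO). Dnmt3a knockout cells were from mice with floxed Dnmt3a and Mx1-Cre, an interferon-inducible Cre that is not restricted to blood cells, per the series design. The labels used here state neither how Cre was induced nor whether wild-type mice carried it, nor the Sting allele, the age of the mice or whether replicates are separate animals. The p-values therefore rest on a spread between libraries that may be technical. Short-term stem cell libraries are not analysed here.

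Each library held between 3.44 M and 47.66 M gene reads (M, megareads). The targeted genes were read first. Dnmt3a, in normalised CPM (a gene's reads scaled to a common library size, with TMM factors), lay at 219, 70.5, 98.0 and 89.6 in LT wild-type and at 38.6, 67.8, 104 and 44.6 in LT knockout libraries. The library labelled LT Dnmt3a knockout 3 was thus above 3 of the 4 wild-type ones. In MEP the wild-type libraries read 51.3, 34.3 and 29.5 and the knockout ones 11.6, 44.9, 1.96 and 1.49, so the library labelled MEP Dnmt3a knockout 2 was above 2 of 3 wild-type libraries. Why both libraries were at wild-type levels, incomplete deletion and a wrong label included, was not tested. They stay under their labels. In CMP/GMP and c-kit+ cells the groups did not overlap: Dnmt3a was at 50.7 to 82.8 in wild-type against 16.8 to 34.0 in knockout CMP/GMP, and at 78.5 to 97.8 in the 4 c-kit+ libraries with intact Dnmt3a against 41.9 to 50.9 in the 5 without. Tmem173, which encodes Sting, was at 9.72 to 11.5 in the c-kit+ Sting knockout and DKO libraries and at 43.5 to 64.5 in the others. The summed levels of 10 markers of LT cells (1431 to 2580 CPM in LT, at most 995 elsewhere) and 9 of MEP and erythroid cells (7794 to 16413 in MEP, at most 3440 elsewhere) followed the labels. Those of 10 CMP/GMP markers (6655 to 34176 in CMP/GMP) did so among sorted libraries only, as c-kit+ libraries carried 14479 to 21221. Of the LT markers, 2 had no read in MEP wild-type. LT wild-type 1 carried 4047 CPM of CMP/GMP markers against 427 to 738 in the other LT libraries. MEP Dnmt3a knockout 2 carried 3057 against 65.5 to 1306 in the other MEP libraries.

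Libraries of the sorted populations fell into 2 kinds that the groups do not explain, and the members show them plainly. In LT wild-type 1, LT Dnmt3a knockout 2 and MEP Dnmt3a knockout 2, 3 and 4, genes outside the member list with transcripts of 1000 to 4000 nt took 52.2 to 54.8% of reads, against 60.8 to 67.0% in the other 18 sorted libraries. In the same 5 libraries the reads of the members under 1000 nt were 2.56 to 2.86 times those of the members of 1000 nt or more, against 0.788 to 1.33 times in the others. Uqcrc1, the large core protein of complex III, shows the side of the members of 1000 nt or more. It was at 163 in LT wild-type 1 against 376 to 528 in the others of its group. In MEP Dnmt3a knockout 2, 3 and 4 it was at 96.6, 171 and 200, against 1236 in MEP Dnmt3a knockout 1. Atp5g3, which encodes the proton-carrying c subunit of the ATP synthase, shows the short side, at 535 in LT wild-type 1 against 123 to 149, and at 1085 to 1184 in MEP Dnmt3a knockout 2 to 4 against 300 in MEP Dnmt3a knockout 1. Across 4567 genes outside the member list, the deviations of these 5 libraries from the others of their own population correlated between populations. The r was 0.50 to 0.63, whereas pairs with 1 such library gave -0.32 to 0.39. The 5 were picked by their low read share in genes of 1000 to 4000 nt outside the member list. Some correlation therefore follows from the choice. These 5 are called the short-profile libraries from here on, a name that describes the members and not all genes. Genes over 4000 nt outside the member list took 15.1 to 19.4% of their reads, against 9.09 to 14.6% in the other 18. The reason for the profile was not tested. Levels are shown for every library, and for each comparison between populations the counts, and whether the named genes stayed called, are also given without them. It bears most on MEP, where 3 of 4 knockout libraries and none of 3 wild-type ones have the profile, so that profile and genotype cannot be told apart in those 3. A further 2 pairs of libraries were also closer than the rest. MEP Dnmt3a knockout 3 and 4 correlated with r of 0.994 over log2 CPM, against 0.661 to 0.768 for the other pairs of that group, and CMP/GMP wild-type 2 and 4 with 0.988 against 0.905 to 0.938. By Xist, CMP/GMP wild-type 4 was male, like wild-type 2, whereas the number 4 libraries of the other sorted groups were female. Both pairs differed by more than counting noise, which cannot show that they come from separate samples. They were kept as separate libraries, and counts with each pair summed are given where these counts differ.

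**Figure D1:**
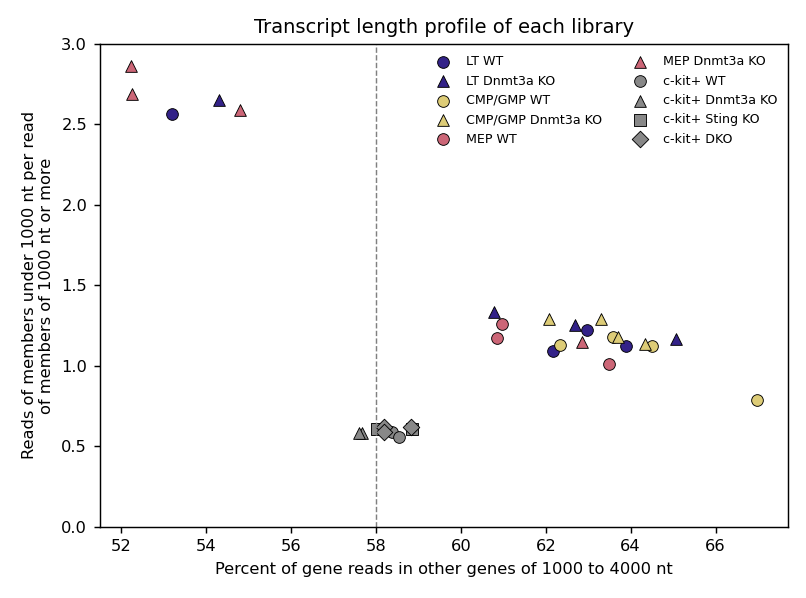
Share of reads in non-member genes with transcripts of 1000 to 4000 nt (x axis, percent of gene reads) against the reads of members under 1000 nt divided by those of members of 1000 nt or more (y axis, ratio), 1 point per library. The dashed line at 58% separates the 5 short-profile libraries from the other sorted ones and is not applied to the c-kit+ libraries, which lie at 57.6 to 58.9% with ratios of 0.559 to 0.622.

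As a share of all gene reads, the members' mean in wild-type cells was lowest in LT and highest in MEP among the sorted populations. They held 2.23, 1.95, 1.53 and 1.58% of reads in the LT wild-type libraries, 2.44, 2.63, 2.39 and 2.20% in CMP/GMP wild-type, and 2.77, 2.96 and 3.20% in MEP wild-type. All 3 MEP libraries were above every CMP/GMP library, and only LT wild-type 1, a short-profile library, reached the CMP/GMP range. In the libraries labelled Dnmt3a knockout the shares were 1.76, 1.61, 1.70 and 1.84% in LT, 2.56, 2.40, 2.29 and 2.59% in CMP/GMP, and 2.97, 2.25, 2.75 and 2.84% in MEP, where MEP Dnmt3a knockout 2, with only 3.44 M reads, fell below every CMP/GMP library and the other 3 lay above them. The c-kit+ libraries gave 0.715 to 0.889%, below every sorted library. Their reads of the 13 mitochondrial protein genes were 3.37 to 3.89 times those of the members, against 0.498 to 1.13 times in sorted cells. In the c-kit+ libraries genes over 4000 nt took 25.4 to 27.0% of reads, against 9.09 to 19.4% in sorted libraries, so a level in c-kit+ cells is not set against one in sorted cells. In RNA from many cells, fewer cells of a kind and less RNA per cell cannot be told apart.

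**Figure D2:**
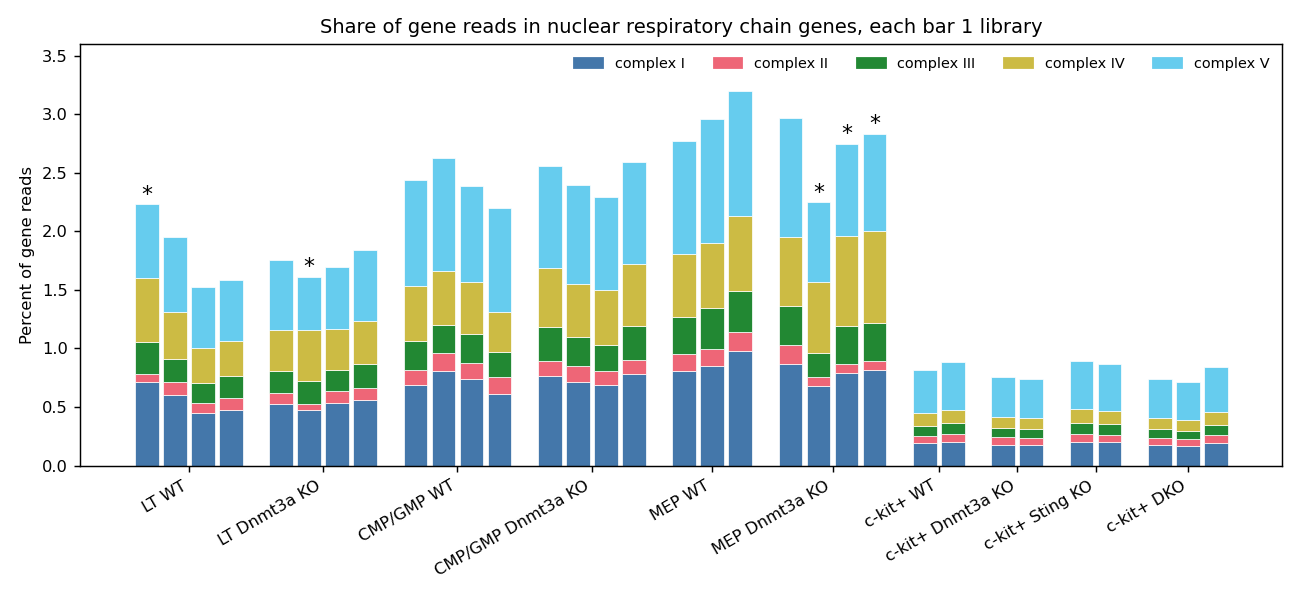
Share of all gene reads held by the members in each library (bars, percent of gene reads), stacked by complex and ordered by group. The asterisks mark the 5 short-profile libraries, and the MEP bars, from 2.25 to 3.20%, stand above the LT bars of 1.53 to 2.23%.

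Per transcript length, a few complex IV subunits and Atp5b led in wild-type sorted cells. In LT wild-type cells the highest mean levels were Cox4i1 (889 CPM per kb), a regulatory subunit of complex IV, then Cox8a (772), Cox6b1 (737) and Cox6a1 (733), with Atp5b, the catalytic beta subunit of the ATP synthase, at 713. In CMP/GMP wild-type Atp5b led with 1459 CPM per kb before Cox4i1 with 1307 and Ndufa4 with 1075, and in MEP wild-type Atp5b led with 1752 before Cox4i1 with 1592 and Cox6a1 with 1518. In MEP knockout, with its 3 short-profile libraries, Cox6a1 led with 2099. At the other end lay isoforms known from muscle or testis. Cox8c had no read in any library, Cox7b2 and Cox8b had reads in 2 libraries each, Cox7a1 reached at most 2.22 CPM and Cox6a2 at most 5.65 CPM.

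Cells without the knockout were compared first, to see how the members' RNA differs between stem cells and the progenitors below them. A gene was called when edgeR's quasi-likelihood test, adjusted over all genes tested, gave p under 0.05, and changes are log2 fold changes with their standard errors. From LT to MEP, 36 of the 80 tested members rose and 1 fell, while 6.02% of all 14663 genes tested rose and 7.17% fell. The members' median change was 0.75 against -0.17 over all genes, and 76 members had a positive value. Scaling by library totals left 22 members called, with 12.5% of all genes called in either direction, and 1 fit over the 23 sorted libraries left 18, with 5.99%. The rises were spread over the complexes: 16 of 36 complex I members, 3 of 4 of complex II, 4 of 8 of complex III, 5 of 15 of complex IV and 8 of 17 of complex V.

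Of the complex I genes, Ndufa10, an accessory subunit of the membrane arm, was at 69.6, 193, 131 and 144 CPM in the LT wild-type libraries and at 375, 506 and 485 in MEP. The groups did not overlap, and the log2 change was 1.77 ± 0.30 (SE, adjusted p = 0.0023). Ndufv1, which binds NADH and holds the flavin where electrons enter, was at 103, 196, 120 and 137 against 399, 528 and 406. Every MEP library was above every LT library by more than the spread in either group, with a log2 change of 1.69 ± 0.24 (adjusted p = 0.0011). Ndufb9, another accessory subunit, gave 1.41 ± 0.22 (adjusted p = 0.0017), and its exons overlap those of Gm49356 on the same strand. Ndufa4 was at 397, 269, 175 and 171 in LT and 348, 351 and 542 in MEP, and these groups overlapped (0.73 ± 0.32, adjusted p = 0.15). It was called without LT wild-type 1 (1.02 ± 0.28, adjusted p = 0.024).

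For complex III, Uqcrc1 stood at 163, 376, 437 and 528 in LT wild-type and at 989, 1379 and 847 in MEP, and no MEP library was within the LT range (1.52 ± 0.32, adjusted p = 0.0093). Uqcrfs1, the Rieske iron-sulfur protein of that complex, followed another order: it was at 159, 213, 234 and 232 in LT, at 122, 129, 210 and 109 in CMP/GMP, and at 315, 434 and 450 in MEP. It was therefore highest in MEP but not lowest in LT. Its rise from CMP/GMP to MEP was 1.48 ± 0.27 (adjusted p = 0.0076) and from LT to MEP 0.95 ± 0.26 (adjusted p = 0.032). In CMP/GMP its log2 change with Dnmt3a knockout was 1.04, which was not called, so the wild-type order need not hold in the knockout.

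For complex V, Atp5b was at 877, 1635, 1559 and 1390 CPM in LT wild-type, at 3034, 2685, 2318 and 3147 in CMP/GMP and at 2984, 3937 and 3152 in MEP. The stem cell libraries lay below all others, while CMP/GMP and MEP overlapped. The change to MEP was 1.31 ± 0.23 (adjusted p = 0.0033) and to CMP/GMP 1.05 ± 0.22 (adjusted p = 0.011). Atp5g1, 1 of 3 genes that encode the same mature c subunit, rose by a further step in MEP: 283, 249, 215 and 154 in LT, 340, 366, 366 and 280 in CMP/GMP, and 603, 627 and 625 in MEP. Its change from LT to MEP was 1.47 ± 0.22 (adjusted p = 0.0013) and from CMP/GMP to MEP 0.87 ± 0.22 (adjusted p = 0.048). The other c subunit genes were not called in either comparison: Atp5g2 gave 0.37 ± 0.23 from LT to MEP (adjusted p = 0.32) and Atp5g3 0.65 ± 0.46 (adjusted p = 0.38). Atp5g3 was called from LT to MEP without LT wild-type 1 (1.41 ± 0.28, adjusted p = 0.0053). Per transcript length, Atp5g1 made up 11.4% of this trio in LT, 13.9% in CMP/GMP and 18.8% in MEP. Library ranges were 7.59 to 15.1%, 12.2 to 14.9% and 16.5 to 20.5%. The lengths used were 2675.5 nt for Atp5g1, 586 nt for Atp5g2 and 718.5 nt for Atp5g3, and these low shares depend on them. In CPM alone, the means of Atp5g1, Atp5g2 and Atp5g3 in this fit were 228, 231 and 240 in LT. In MEP they were 633, 299 and 377.

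Complex II was the smallest set, and its genes differed in which comparison called them. Sdhb, the iron-sulfur subunit, was at 182, 227, 208 and 171 in LT wild-type, at 386, 443, 455 and 354 in CMP/GMP and at 467, 492 and 499 in MEP, so the groups did not overlap at either step. It rose from LT to CMP/GMP by 1.08 ± 0.18 (adjusted p = 0.0039) and from LT to MEP by 1.32 ± 0.19 (adjusted p = 0.0011). Sdha, the flavoprotein that oxidises succinate, was at 339, 488, 341 and 410 in LT, 567, 711, 646 and 788 in CMP/GMP and 508, 623 and 681 in MEP. It was called from LT to CMP/GMP (0.80 ± 0.20, adjusted p = 0.025) and not from LT to MEP (0.63 ± 0.21, adjusted p = 0.065), although no MEP library fell within the LT range. The membrane anchors Sdhc and Sdhd showed the reverse: both were called from LT to MEP (1.07 ± 0.28, adjusted p = 0.025, and 1.08 ± 0.22, adjusted p = 0.0080) and not from LT to CMP/GMP (0.54 ± 0.26, adjusted p = 0.21, and 0.57 ± 0.21, adjusted p = 0.10). From CMP/GMP to MEP no complex II gene was called.

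Between LT and CMP/GMP wild-type cells 13 of 80 members rose and none fell, with 4.51% of all genes called higher and 4.23% lower. The median change was 0.47, against -0.09 over all genes. None of the 15 tested complex IV members was among the 13, which were 6 of complex I, 2 of complex II, 1 of complex III and 4 of complex V. The members that rose most were Ndufa10 (1.35 ± 0.28, adjusted p = 0.011), the alpha and b subunits of the ATP synthase Atp5a1 (1.16 ± 0.20, adjusted p = 0.0049) and Atp5f1 (1.11 ± 0.18, adjusted p = 0.0039), Sdhb, Ndufv2 (1.05 ± 0.22, adjusted p = 0.012), which carries an iron-sulfur cluster beside Ndufv1, and Atp5b. The exons of Atp5a1 and Atp5f1 overlap genes on the other strand, and no source used here states the strand setting of the counting. From CMP/GMP to MEP, 3 members rose (Cox6b2, Uqcrfs1 and Atp5g1) and none fell, with 1.19% of all genes higher and 2.28% lower, although 71 of 80 had a positive value and the median was 0.30.

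These counts depend on single libraries and on the short profile. Of the 13 members called between LT and CMP/GMP, 12 have transcripts of 1000 nt or more, and LT wild-type 1 was the lowest of its group for Ndufa10, Ndufv1, Sdha, Atp5a1 and Atp5b. That library also carried the raised CMP/GMP markers given above and 2678 CPM of 5 megakaryocyte markers against 404 to 571 in the others of its group, and their part in the counts was not tested. Without LT wild-type 1, the only short-profile library among the wild-type ones, 37 members rose from LT to CMP/GMP, where 8.02% of all genes rose, and 62 rose and 1 fell from LT to MEP, where 9.47% of all genes rose and 9.59% fell. From CMP/GMP to MEP 6 rose, with 3% of all genes. The earlier 13, 37 and 3 calls were all among them, so the genes named above as called stayed called. Of the 37 that rose from LT to CMP/GMP, 6 then belonged to complex IV and 20 had transcripts under 1000 nt. Ndufa10 came to 1.56 and Uqcrc1 to 1.27 from LT to MEP, Atp5b to 1.14 and Sdhb to 1.28. Leaving out another library lowered the numbers: from LT to CMP/GMP 8 members were called without LT wild-type 3 and 8 without LT wild-type 4, of which 7 each were among the 13. Without CMP/GMP wild-type 4 the count was 7 and without CMP/GMP wild-type 2 it was 6, all among the 13. It was also 7 with CMP/GMP wild-type 2 and 4 summed or with scaling by library totals, and 6 in 1 fit over the 23 sorted libraries. From LT to MEP the count was 19 without LT wild-type 4, 24 without MEP wild-type 1 and 17 without MEP wild-type 3 or 4, and from CMP/GMP to MEP it was 1 without MEP wild-type 4.

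Over the 78 members with a mean of 5 CPM or more in wild-type cells, 69 had their highest mean in MEP, 6 in CMP/GMP and 3 in LT, and 58 ascended from LT over CMP/GMP to MEP. The 3 with the highest mean in LT were Atp5e, a small subunit of the ATP synthase, Cox4i2 and Cox7a2l. For Atp5e (adjusted p = 0.96) and Cox7a2l (adjusted p = 0.54) the LT and MEP libraries overlapped and were not called different.

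The called members with the largest change in each direction from LT to MEP were both alternative isoforms of complex IV. Cox6b2 (GRCm38.p6, chromosome 7, 4751792 to 4753094), the isoform of subunit 6b best known from testis, was at 10.5, 22.8, 25 and 36.0 CPM in LT wild-type, at 46.4, 29.8, 33.9 and 27.0 in CMP/GMP and at 137, 148 and 167 in MEP. The stem cell and CMP/GMP libraries overlapped, and all 3 MEP libraries lay far above both. The log2 change was 2.69 ± 0.38 from LT to MEP (adjusted p = 0.00086) and 2.14 ± 0.37 from CMP/GMP to MEP (adjusted p = 0.0067). Its common counterpart Cox6b1 was at 536, 364, 270 and 264 in LT and at 541, 534 and 704 in MEP (0.75 ± 0.26, adjusted p = 0.077). Per transcript length, Cox6b2 made up 2.15 to 13.2% of the pair in LT wild-type libraries, 6.72 to 9.43% in CMP/GMP and 21.0 to 23.6% in MEP.

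The reverse held for Cox4i2 (chromosome 2, 152753916 to 152765039), an isoform of Cox4i1 known to respond to low oxygen. It was at 19.5, 10.3, 5.07 and 7.94 CPM in LT wild-type, at 8.04, 4.89, 3.83 and 3.01 in CMP/GMP and at 0, 0.237 and 0.624 in MEP. It fell from LT to MEP by 5.18 ± 1.39 (SE) on the log2 scale (adjusted p = 0.028), the only member that did. Its share of the Cox4i pair per length was 1.58% in LT wild-type cells on average, so Cox4i1, which rose from LT to MEP by 0.86 ± 0.20 (adjusted p = 0.013), made up nearly all of it everywhere. Cox6a1 (1.07 ± 0.29, adjusted p = 0.028) and Cox8a (0.68 ± 0.20, adjusted p = 0.040) also rose from LT to MEP, while Cox7a2 (0.57 ± 0.40, adjusted p = 0.37) and Cox7b (0.97 ± 0.36, adjusted p = 0.093) were not called. Both were called without LT wild-type 1, Cox7a2 at 1.14 (adjusted p = 0.013) and Cox7b at 1.35 (adjusted p = 0.010), and so was Cox6b1 (adjusted p = 0.0072).

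**Figure D3:**
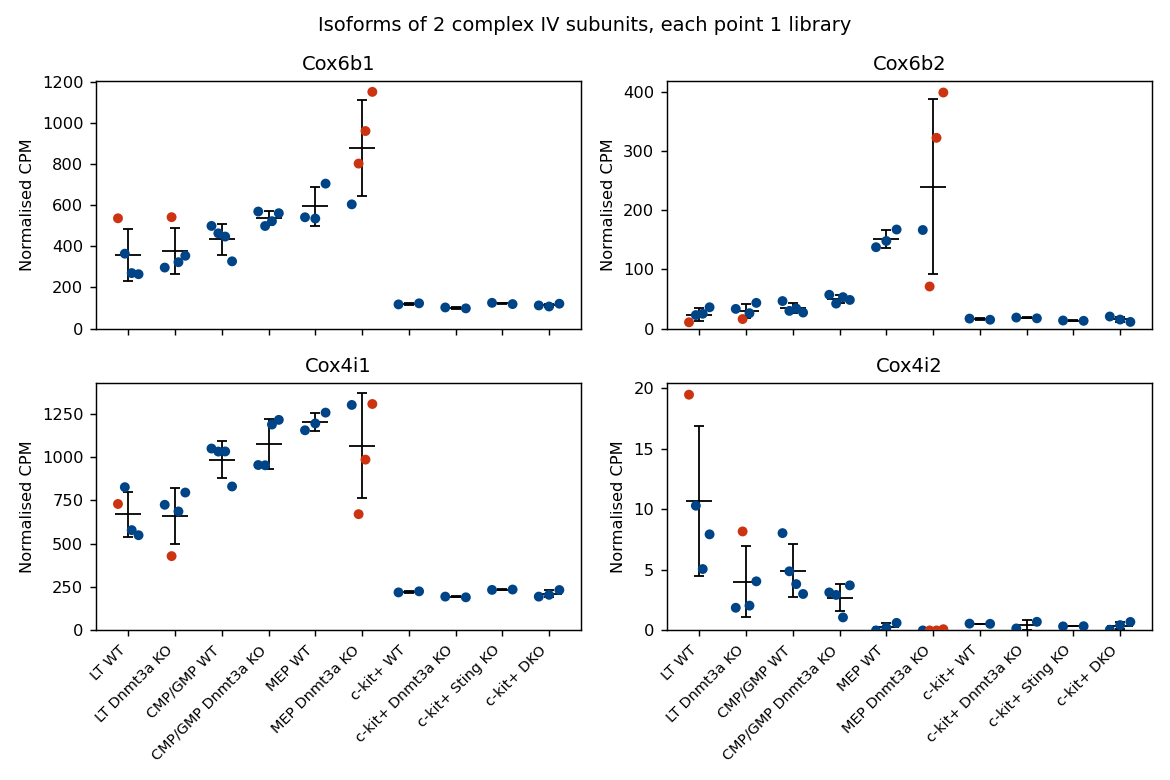
Levels of the isoform pairs Cox6b1 and Cox6b2, and Cox4i1 and Cox4i2, in each sorted and c-kit+ library (normalised CPM), with group means and bars of 1 SD. The c-kit+ libraries were scaled apart, and their levels are not to be set against those of sorted libraries. Red points are short-profile libraries. Cox6b2 lies at 71.1 to 399 in MEP and at 10.5 to 57.1 in LT and CMP/GMP, and Cox4i2 is at or near 0 in all MEP libraries.

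Promoter sequence was set beside 4 of these members: Sdhb and Uqcrc1 because both rose from LT to MEP, and Cox6b1 and Cox6b2 because the isoforms differ in how they do. Of the 83 members, 66 had an entry in the RefSeq promoter table of GRCm38.p6, which spans the gene start. Both strands were searched for the core GCATGCGC of NRF1, a regulator of nuclear respiratory genes, for CCGGAAG of the ETS factor GABP, and for AAGATGGC of YY1. The NRF1 letters overlap their own reverse complement, so a match on both strands can be 1 site. NRF1 letters were in 10 of the 66 member promoters (15.2%) and in 2.80% of all 27025 promoters, GABP letters in 15 (22.7%) against 9.12%, and YY1 letters in 8 (12.1%) against 2.88%. Capitals mark the matches, and each line reads 5′ to 3′ on the strand of the gene. The windows are chr4:140961021-140961320 on the plus strand for Sdhb, chr9:108936398-108936697 on the plus strand for Uqcrc1, chr7:30626065-30626364 on the minus strand for Cox6b1 and chr7:4753045-4753344 on the minus strand for Cox6b2.
Sdhb: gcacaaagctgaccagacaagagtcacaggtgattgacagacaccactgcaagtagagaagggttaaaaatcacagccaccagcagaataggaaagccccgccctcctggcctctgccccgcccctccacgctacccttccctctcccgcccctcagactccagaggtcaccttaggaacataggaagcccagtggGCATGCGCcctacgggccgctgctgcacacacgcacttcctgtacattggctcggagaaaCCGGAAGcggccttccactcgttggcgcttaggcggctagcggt
Uqcrc1: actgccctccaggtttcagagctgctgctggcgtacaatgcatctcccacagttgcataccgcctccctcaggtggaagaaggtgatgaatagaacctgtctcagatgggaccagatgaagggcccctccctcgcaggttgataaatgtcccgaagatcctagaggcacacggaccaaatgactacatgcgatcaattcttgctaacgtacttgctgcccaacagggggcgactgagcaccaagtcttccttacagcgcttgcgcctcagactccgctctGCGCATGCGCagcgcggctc
Cox6b1: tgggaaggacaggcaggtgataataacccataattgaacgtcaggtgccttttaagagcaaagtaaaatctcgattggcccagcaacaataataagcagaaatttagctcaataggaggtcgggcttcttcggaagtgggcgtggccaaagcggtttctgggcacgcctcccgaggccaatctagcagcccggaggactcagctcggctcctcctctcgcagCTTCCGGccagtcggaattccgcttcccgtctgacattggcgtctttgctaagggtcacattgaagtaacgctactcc
Cox6b2: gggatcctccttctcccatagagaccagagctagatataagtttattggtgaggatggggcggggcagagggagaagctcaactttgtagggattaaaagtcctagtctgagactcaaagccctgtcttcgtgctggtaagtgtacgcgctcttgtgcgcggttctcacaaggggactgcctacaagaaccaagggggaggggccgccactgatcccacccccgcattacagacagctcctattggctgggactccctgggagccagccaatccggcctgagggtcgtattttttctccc
In Sdhb the NRF1 letters start at base 197 and the GABP letters at base 257 of the window. In Uqcrc1 the capitals are the overlapping NRF1 matches of both strands, and in Cox6b1 they are the GABP letters on the other strand. The Cox6b2 window holds none of the 3 letter strings. A match describes these letters in this window and says nothing of binding.

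The same populations were compared within the Dnmt3a knockout, in libraries that the wild-type comparisons do not use. From LT to MEP, 33 of 80 members rose and 1, Cox4i2, fell, with 4.49% of all 13565 genes called higher and 5.4% lower. The median change was 0.85 and 72 members were positive. Of the members tested in both genotypes, 71 of 80 were positive in both. Of the genes called, 9 were called in both genotypes, which is 24.3% of the 37 in wild type and 26.5% of the 34 in the knockout. These 9 were Atp5g1, Atp5o, Cox4i2, Cox5b, Cox6a1, Cox6b2, Ndufa1, Ndufb5 and Uqcr11.

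Cox6b2 again had a wide difference between stem cells and MEP: 33.2, 16.0, 25.9 and 43.4 CPM in the LT knockout libraries, 57.1, 42.2, 53.1 and 48.4 in CMP/GMP and 167, 71.1, 322 and 399 in MEP. No MEP library overlapped the others, though the MEP libraries spread widely. The changes were 3.01 ± 0.49 from LT (adjusted p = 0.0036) and 2.26 ± 0.48 from CMP/GMP (adjusted p = 0.024). Cox4i2 was at 1.87, 8.18, 2.05 and 4.06 in LT and at 0, 0, 0 and 0.0993 in MEP (-6.96 ± 1.76, adjusted p = 0.026). That fitted value rests on 3 libraries with no read and on the fit's small added count, so its size is not a measured fold.

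The other members that rose most in the knockout were short: Atp5g3 (2.12 ± 0.50, adjusted p = 0.020), Atp5l (2.04 ± 0.36, adjusted p = 0.0047), a small subunit of the membrane part of the ATP synthase, Cox5a (2.03 ± 0.41, adjusted p = 0.0099), a subunit of complex IV, Ndufa5 (1.89 ± 0.36, adjusted p = 0.0069), of the complex I arm that holds the electron carriers, and Ndufb5 (1.87 ± 0.27, adjusted p = 0.0022), of its membrane arm. Cox5a was at 197, 453, 167 and 196 in LT knockout and at 416, 1513, 1108 and 1097 in MEP knockout. Ndufa5 was at 64.3, 107, 90.0 and 61.1 in LT and at 130, 346, 306 and 418 in MEP. In both genes the short-profile libraries (LT 2, MEP 2, 3 and 4) were the highest of their groups. For Cox5a, LT knockout 2 exceeded MEP knockout 1, whereas for Ndufa5 the populations did not overlap. Of the 33 members that rose, 29 have transcripts under 1000 nt, and the long Sdhb was at 263, 108, 268 and 217 in LT and at 566, 102, 117 and 119 in MEP (0.08 ± 0.50, adjusted p = 0.94).

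Without the 5 short-profile libraries, where MEP knockout is a single library whose spread is assumed to be like that of the other groups, 34 members rose from LT to MEP, with 2.69% of all genes, and 15 of them were among the earlier 34 calls. All 34 were among the 62 that rose in wild type without LT wild-type 1, which is 54.8% of those, and 18 had transcripts under 1000 nt. Cox6b2 (2.26, adjusted p = 0.0083), Atp5g1 (1.69, adjusted p = 0.0049), Ndufb5 (1.10, adjusted p = 0.031) and Atp5g3 (1.21, adjusted p = 0.033) stayed called, and Sdhb was called (1.15, adjusted p = 0.022), whereas Atp5l (0.93, adjusted p = 0.069), Cox5a (1.13, adjusted p = 0.051), Ndufa5 (0.82, adjusted p = 0.17) and Cox4i2 (adjusted p = 0.11) did not. With a term for the profile in place of leaving libraries out, 42 rose and 1 fell, 29 of them among the earlier calls. The count was 18 without LT knockout 1, 19 without the library labelled LT Dnmt3a knockout 3, 16 without LT knockout 4, 18 without MEP knockout 3 and 15 without MEP knockout 4. It was 18 with the near-identical MEP knockout 3 and 4 summed, with 3.7% of all genes called in either direction, and 21 with scaling by library totals.

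**Figure D4:**
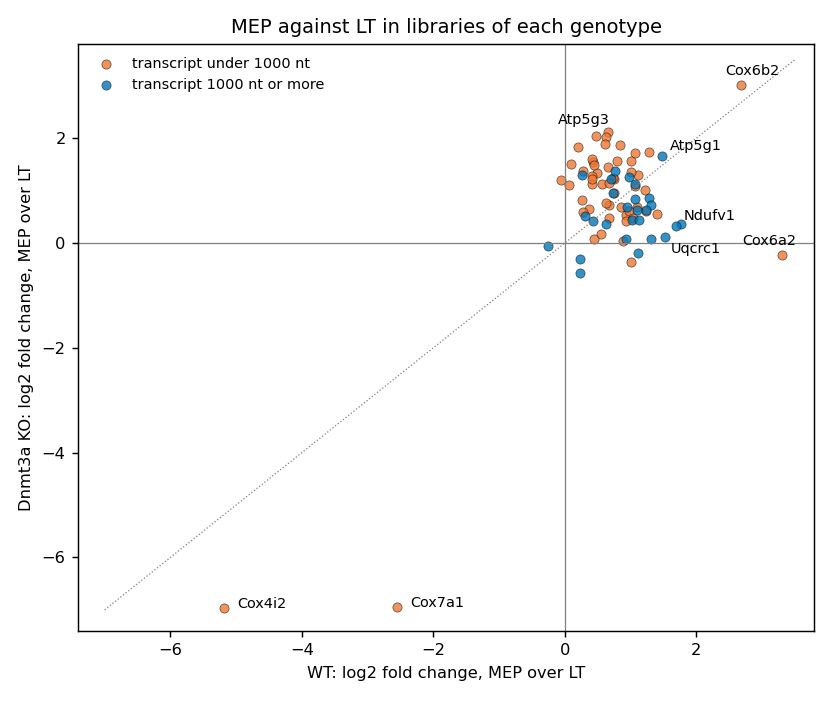
Log2 fold change from LT to MEP of each tested member in wild-type cells (x axis) and in Dnmt3a knockout cells (y axis), with the dotted line marking equal values. Cox6b2 lies far up in both (2.69 and 3.01) and Cox4i2 far down in both (-5.18 and -6.96). The short Atp5g3 lies above the line and the long Ndufv1 below it, but length does not divide all members. Ndufs8 (980 nt, 1.02 and -0.36) lies below the line and Ndufb2 (2413 nt, 0.77 and 1.37) above it. These lengths are medians over annotated transcripts, and the transcripts in use may differ.

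From LT to CMP/GMP in the knockout, edgeR called no member, with 0.317% of all genes higher and 0.354% lower. DESeq2 called 4, and 24 members had an unadjusted p under 0.05. In 76 of 80 the value was positive, and in 43 every CMP/GMP library lay above every LT library, which was so for 10.4% of all genes. Without the short-profile library LT knockout 2 and the 3 of MEP, 32 members were called, all higher, with 3.35% of all genes higher, and with the profile term 12. Ndufa4 (1.28, adjusted p = 0.0019) and Cox7b (0.75, adjusted p = 0.027) were then called. It was 3 without MEP knockout 1 or 2, which enter this fit only through the shared estimate of spread. With all libraries, Ndufa4 (1.11 ± 0.26, adjusted p = 0.069) and Cox7b (0.85 ± 0.23, adjusted p = 0.12) were among the genes whose groups did not overlap.

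From CMP/GMP to MEP in the knockout, 9 members rose and Cox4i2 fell, with 3% of all genes higher and 2.51% lower. With MEP knockout 3 and 4 summed, whose r of 0.994 is given above, 0 members were called, and 0.79% of all genes. All 9 have transcripts under 1000 nt, among them Cox6b2, Atp5g3 (1.94 ± 0.50, adjusted p = 0.042), Uqcrh (1.60 ± 0.38, adjusted p = 0.035), the hinge protein of complex III, and Ndufa5 (1.54 ± 0.35, adjusted p = 0.030). Without the short-profile libraries 1 of them, Cox6b2 (1.72, adjusted p = 0.041), stayed called, with 0.277% of all genes higher, and Atp5g3 came to 0.30, Uqcrh to 0.34 and Ndufa5 to 0.32 (adjusted p of 0.75, 0.74 and 0.75). With the profile term 0 did, Cox6b2 at 2.44 with adjusted p = 0.13. The count was 0 without any 1 of the 4 CMP/GMP knockout libraries or without MEP knockout 3 or 4, 5, 2 and 3 without LT knockout 1, 3 and 4, 16 without LT knockout 2 and 32 without MEP knockout 1. Without MEP knockout 1 the MEP group holds only short-profile libraries, so the 32 are not a result about the members.

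The next question was whether loss of Dnmt3a alters these genes within a population. In LT edgeR called no member higher or lower (0% and 0% of all 12800 genes tested), none of the 78 tested had an unadjusted p under 0.05, and DESeq2 called 0. The median was -0.08 over members and 0.00 over all genes, and without LT wild-type 1 and LT knockout 2 it was 0.08 with 0 called. In CMP/GMP no member was called either (0% and 0% of all genes), 6 had an unadjusted p under 0.05, the median was 0.12, and DESeq2 called 2, both higher. The lowest p-values there belonged to Atp5g2, at 216, 220, 221 and 182 in wild type and 377, 278, 300 and 303 in knockout (0.59 ± 0.15, adjusted p = 0.31), and to Sdha, at 567, 711, 646 and 788 against 444, 520, 506 and 428 (-0.51 ± 0.14, adjusted p = 0.36). Their groups do not overlap, and neither value holds against the correction for all genes. Since no gene was called in LT or CMP/GMP, Dnmt3a itself was not called, although its CMP/GMP groups do not overlap. The tests thus missed a known change, and the absence of calls does not show that the members are unaltered.

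In MEP edgeR called no member, and Dnmt3a itself was not called either (0% higher and 0% lower over all genes). Of 77 members, 18 had an unadjusted p under 0.05, and DESeq2 called 3. The values split by length: the median over the 50 members under 1000 nt was 0.37 and over the 27 longer ones -0.44. The short Atp5e had the lowest p (1.15 ± 0.33, adjusted p = 0.31), and the long Uqcrc1 had the most negative value (-1.36 ± 0.77, adjusted p = 0.46). Without MEP knockout 1, the knockout library that lacks the short profile, 33 of 77 members were called (16 higher and 17 lower), while 24.3% of all genes were, and without the 3 short-profile libraries none was, with a median of 0.03, although MEP knockout is then 1 library whose spread is assumed to be like that of the wild type. Profile and genotype cannot be told apart in those 33 calls. The test that the effect of Dnmt3a loss differs between LT, CMP/GMP and MEP called no member with edgeR, while 0.0186% of all genes were called. In that test 6 members had an unadjusted p under 0.05, DESeq2 called 0, and 7 were called without MEP knockout 1.

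In c-kit+ cells the effects of Dnmt3a and Sting were compared in 9 libraries fitted together. Most members had negative values in both comparisons that remove Dnmt3a, and none passed the test. Between Dnmt3a knockout and wild type no member was called by edgeR (0.306% of all genes higher and 0.262% lower), 21 had an unadjusted p under 0.05, and DESeq2 called 2, both lower. Yet 75 of 80 values were negative, with a median of -0.17 against 0.00 over all 16026 genes. Both knockout libraries are female and both wild-type ones male by their Xist level, and with a sex term, estimated from the DKO libraries, the median was -0.09. The shift also varied with transcript length. Among genes of at least 5 CPM, members included, the median difference was -0.09 under 1000 nt and 0.09 over 4000 nt. The 50 members under 1000 nt had -0.16, and no member was over 4000 nt. In the length groups between, all genes had -0.055 and 0.015 and members -0.15 and -0.18. The part of length in the members' values was not tested. In 55 members both knockout libraries lay below both wild-type libraries, which was so for 27.2% of all genes. Complex V had 17 of 17 negative values, complex III 8 of 8 and complex II 4 of 4.

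Single members give the size of this. Atp5g3 was at 159 and 177 in wild type and at 131 and 130 in the Dnmt3a knockout (-0.36 ± 0.09, adjusted p = 0.11). Atp5b was at 1127 and 1279 against 1055 and 1014, and Cox4i1 at 219 and 226 against 195 and 191 (-0.22 ± 0.09 and -0.20 ± 0.09, adjusted p = 0.29 for both). The groups were apart in all 3 genes. Sdhb (71.7 and 77.5 against 77.1 and 72.0) and Cox8a (55.2 and 57.9 against 57.0 and 56.1) overlapped.

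Loss of Dnmt3a on the Sting knockout background, DKO against Sting knockout, uses none of those 4 libraries. No member was called by edgeR there (0% of all genes higher and 0% lower), 28 had an unadjusted p under 0.05, and DESeq2 called 4, all lower. The median was -0.18 against 0.02 over all genes, 72 of 80 values were negative, and in 54 members all 3 DKO libraries lay below both Sting knockout libraries, against 13.8% of all genes. Among genes of at least 5 CPM, the median difference was -0.10 under 1000 nt, members included, and 0.01 over 4000 nt. The 50 members under 1000 nt had -0.19. In the length groups between, all genes had -0.03 and 0.006 and members -0.14 and -0.25. The part of length was not tested here either. In both comparisons together 69 of 80 members were negative, but across the 80 members the sizes of both sets of changes correlated with r of only 0.0764. Cox8a had the lowest p (-0.61 ± 0.08, adjusted p = 0.089) and was the 1 member called without DKO 3. It was followed by Atp5g2 at 109 and 108 in Sting knockout against 84.2, 84.8 and 85.9 in DKO (-0.35 ± 0.06, adjusted p = 0.22).

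**Figure D5:**
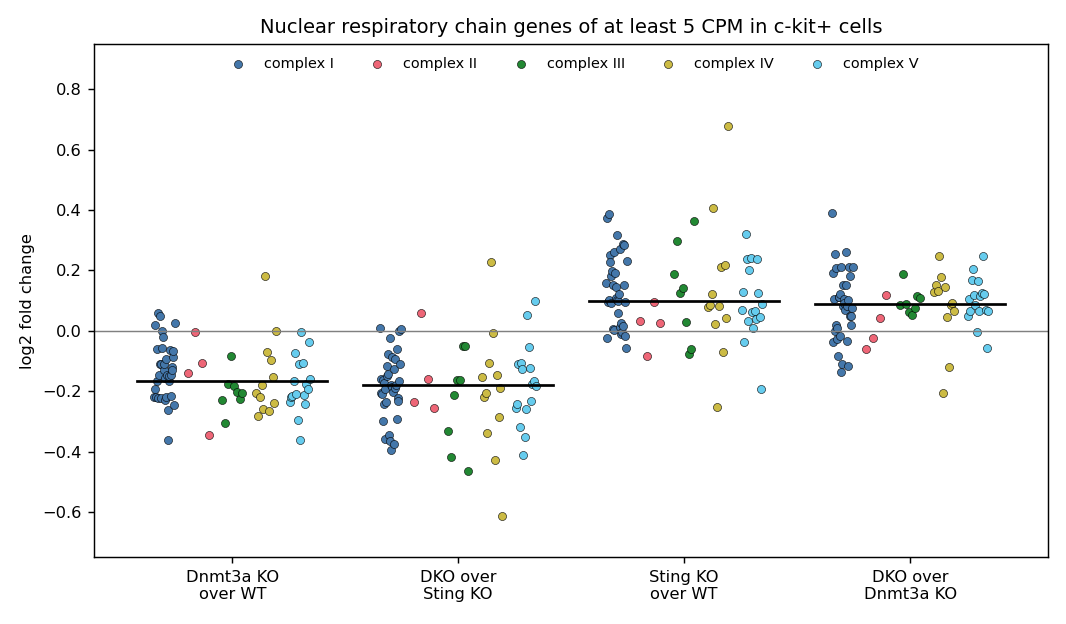
Log2 fold changes of the 77 members with a mean of 5 CPM or more in the 4 c-kit+ comparisons, 1 point per member, with black lines at the medians. The medians are -0.16 and -0.18 where Dnmt3a is lost (wild-type and Sting knockout background) and 0.10 and 0.09 where Sting is lost (wild-type and Dnmt3a knockout background).

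With loss of Sting alone 1 member rose, Cox8a (GRCm38.p6, chromosome 19, 7215158 to 7217616), which encodes the ubiquitous form of the smallest subunit of complex IV, with 0.212% of all genes higher and 0.562% lower. It was at 55.2 and 57.9 in wild type and at 91.9 and 89.0 in Sting knockout, a log2 change of 0.68 ± 0.09 (adjusted p = 0.012). In the Dnmt3a knockout it was at 57.0 and 56.1 and in the DKO at 54.2, 59.0 and 64.2, so only the Sting knockout with intact Dnmt3a stood apart. The interaction was -0.61 ± 0.13 with adjusted p = 0.13, so that difference did not pass the test. The call was lost without any 1 of the 4 libraries compared, while the value stayed between 0.64 and 0.71. Over all members 14 had an unadjusted p under 0.05, 65 of 80 were positive, the median was 0.10, and in 37 both Sting knockout libraries lay above both wild-type libraries, against 23.5% of all genes.

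Between DKO and Dnmt3a knockout no member was called by edgeR (0% of all genes higher and 0.156% lower), 6 had an unadjusted p under 0.05 and DESeq2 called 0. Here 64 of 80 were positive with a median of 0.09, and in 25 all DKO libraries lay above both Dnmt3a knockout libraries, against 12.6% of all genes. Ndufa1, an X-linked small subunit of complex I, had the lowest p (0.39 ± 0.14, adjusted p = 0.61). The interaction of both losses called no member (0.0749% of all genes higher and 0.0749% lower), with 3 at an unadjusted p under 0.05, a median of -0.02 and 1 called by DESeq2.

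Other features of the c-kit+ libraries differed between the same groups. The summed level of 5 markers of mature neutrophils was 9930 and 5590 CPM in wild type, 13422 and 15392 in Dnmt3a knockout, 10262 and 10447 in Sting knockout and 20438, 27818 and 9770 in DKO. The members' share of reads in the same order was 0.817 and 0.880%, 0.754 and 0.742%, 0.889 and 0.866%, and 0.741, 0.715 and 0.845%. The 4 libraries with the highest neutrophil sums, both Dnmt3a knockout ones and DKO 1 and 2, had the 4 lowest shares, and DKO 3, with the lowest sum of its group, had the highest share of that group. Macrophage markers summed to 994 and 1028 CPM in wild type, 457 to 485 in Dnmt3a knockout, 270 to 276 in Sting knockout and 313 to 452 in DKO. Markers of eosinophils, basophils and mast cells summed to 3945 and 4252 in wild type, 1336 to 1780 in Dnmt3a knockout, 1593 to 1936 in Sting knockout and 2039 to 2996 in DKO. In Sting knockout the members' share was as high as in wild type, while both of these sums were lower and the neutrophil sum was higher. By the level of Xist, which silences an X chromosome in females, DKO 1 was female beside both Dnmt3a knockout libraries, and the other 6 were male. Within the 4 libraries of the Dnmt3a knockout and wild-type comparison sex and genotype cannot be told apart. The part of these features in the members' values was not tested further.

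The partners of the chain were read in the same fits. Of the 17 citric acid cycle genes, 12 rose from LT to MEP and 8 from LT to CMP/GMP in wild-type cells, with median changes of 1.06 and 0.84, against 6.02% and 4.51% of all genes that rose. The counts were 14 and 10 without LT wild-type 1. Dlst of the oxoglutarate dehydrogenase complex went from 85.3 ± 31.7 (SD, n = 4) in LT to 326 ± 89.0 (n = 3) in MEP (1.93 ± 0.30, adjusted p = 0.0016), and the malate dehydrogenase Mdh2 from 307 ± 115 to 929 ± 99.2 (1.60 ± 0.26, adjusted p = 0.0020). In the knockout 3 cycle genes rose from LT to MEP, among them the citrate synthase Cs (1.15 ± 0.25, adjusted p = 0.015), and 0 from LT to CMP/GMP (5 at an unadjusted p under 0.05). Without the short-profile libraries 5 rose in each of these comparisons, Cs among them from LT to MEP (1.37, adjusted p = 0.021).

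Of 11 tested genes of the chain that the symbol rule misses, 5 rose from LT to MEP in either genotype. In wild-type cells cytochrome c1, Cyc1, went from 219 ± 65.7 to 715 ± 56.8 (1.71 ± 0.25, adjusted p = 0.0011), and Atpif1, an inhibitor of the ATP synthase known for its role in haem synthesis, from 421 ± 93.8 to 1407 ± 119 (1.74 ± 0.22, adjusted p = 0.00043). Cytochrome c itself, Cycs, rose from LT to CMP/GMP in wild type (1.43 ± 0.27, adjusted p = 0.0064) and was the gene of this list called there in the knockout (1.40 ± 0.27, adjusted p = 0.032). Without the short-profile libraries Cyc1 (1.52), Atpif1 (1.90) and Cycs (1.71 in wild type and 1.45 in the knockout) were still called. Of 47 tested assembly factors, 3 rose from LT to MEP in wild type (Ndufaf3, Cox10 and Ndufaf4), and 2 rose and Cox11 fell from LT to CMP/GMP. These shares of 6.38 and 4.26% are close to the 6.02 and 4.51% of all genes that rose. Without LT wild-type 1 both counts were 6, or 12.8%, against 9.47 and 8.02% of all genes.

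The 13 subunits encoded by mitochondrial DNA were read beside their nuclear partners, and the difference between both sets was not tested. In wild-type cells 1, ND1 of complex I, rose from LT to MEP (0.83 ± 0.24, adjusted p = 0.035), with a median of 0.30 over the 13 against 0.75 over the members. Without LT wild-type 1, ND1 was again the 1 called (0.97) and the medians were 0.53 and 1.01. In the knockout 2 rose, ND1 and ND6, with a median of 1.49 against 0.85. Across the libraries, ND6 was at 170, 926, 355 and 247 CPM in LT and at 313, 1989, 2145 and 1873 in MEP, where LT knockout 2 and MEP knockout 2 to 4 have the profile. Without those libraries, which leaves a single MEP one, none of the 13 was called (ND1 0.85, adjusted p = 0.089; ND6 0.26, adjusted p = 0.76) and the median was 0.41 against 0.94 over the members. In c-kit+ cells all 13 were negative between Dnmt3a knockout and wild type, with a median of -0.22 and none called (8 at an unadjusted p under 0.05). Of 17 tested regulators of mitochondrial biogenesis none was called between LT and MEP in wild type (4 at an unadjusted p under 0.05), while in the knockout Lrpprc, an RNA-binding protein of mitochondrial transcripts (3.10 ± 0.62, adjusted p = 0.0088), and Gabpa, the DNA-binding part of GABP (2.21 ± 0.43, adjusted p = 0.0073), rose from LT to MEP. Lrpprc was at 39.8, 17.5, 45.1 and 53.8 in LT and at 50.9, 542, 338 and 414 in MEP, so that only the short-profile MEP libraries were high and MEP knockout 1 lay within the LT range. Without the short-profile libraries neither was called (Lrpprc 0.11, adjusted p = 0.98, and Gabpa 1.25, adjusted p = 0.18), while in wild type 3 regulators then rose from LT to MEP: Lrpprc, Tefm and Tfam.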

How the data were processed

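Gene read counts were used as the authors deposited them, as whole numbers per gene symbol and library. Per the submitters' processing notes, the tools were Trim Galore 0.6.7, HISAT2, featureCounts 2.0.1 and DESeq2 1.34.0, and the genome build was mm10. The annotation and the strand and multi-mapping settings of the counting were not stated. Of 40 columns 32 were used, and the 8 short-term stem cell columns were not, since each of their names stands on more than 1 column and none names the knockout. Libraries held 3.44 M to 47.66 M gene reads, and the shallowest, MEP Dnmt3a knockout 2, gives the least precise values.

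Counts were tested in R 4.3.3 with edgeR 4.0.16 (TMM factors, filterByExpr with a minimum count of 10 and a minimum total of 15, quasi-likelihood test). P-values were adjusted by Benjamini-Hochberg over all genes tested and called under 0.05. Dnmt3a effects were fitted within each sorted population, population differences within each genotype, and the 9 c-kit+ libraries together. The procedure was tested on simulated data. Levels per library are CPM with TMM factors over the 23 sorted or the 9 c-kit+ libraries. The length of a gene is the median over its protein-coding transcripts in the GENCODE basic annotation, which also gave the exon overlaps. Gene positions and promoters came from RefSeq for GRCm38.p6. All 83 members matched, and 66 had a promoter entry.

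Named members were the most abundant of each complex, every Sdh gene, every gene of an isoform family, and up to 6 called members per direction and comparison with a mean of at least 5 CPM. Genes named outside this rule, such as those with the lowest p in a comparison without calls, were chosen after their values were seen. The members and lists were chosen with earlier results of these data known. Alternatives were DESeq2 1.42.0, other scalings, no filter, replicate or sex terms, wider or narrower fits, and leaving out each library. Leaving out the short-profile libraries, a term for that profile, summing 2 pairs of near-identical libraries and a crossed pairing were chosen after seeing the data.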

Additional observations from a re-analysis of the deposited data

Results flagged for a closer look

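Of 85 groups of library values read for a single distant library, 10 had one by Dixon's criterion, and chance alone gives about 1 in 20. In LT Dnmt3a knockout 2, a short-profile library, complex II genes held 0.05327% of reads against 0.0949 to 0.102% in the other 3 libraries, and complex IV genes 0.4383% against 0.348 to 0.363%. In MEP Dnmt3a knockout 1, the library of its group without the short profile, complex II genes held 0.1607% against 0.0702 to 0.0802%, and Uqcrc1 stood at 1236 CPM against 96.6 to 200. In MEP Dnmt3a knockout 2, which has the fewest reads, complex III genes held 0.2079% against 0.326 to 0.333%, and Uqcrfs1 stood at 219.7 CPM against 350 to 366. In MEP Dnmt3a knockout 4 Cox4i2 was at 0.09933 CPM, with 0 in the other 3. CMP/GMP wild-type 4 had complex III at 0.2151% against 0.244 to 0.25%, complex IV at 0.3396% against 0.444 to 0.465%, and Cox4i1 at 830.9 CPM against 1032 to 1050.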

How the results depend on the processing

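No called member named in the text reversed its direction. Where a count, here or above, stands without the share of all genes called, it shows only how far the count moved. It is then not a result about the members. Member medians near 0 did change sign in 3 comparisons: Dnmt3a loss in LT (-0.08, from -0.18 to 0.10 over 17 alternatives), in MEP (0.01, from -0.15 to 0.16 over 17) and the c-kit+ interaction (-0.02, from -0.07 to 0.05 over 16). With DESeq2 the members called were 2 for Dnmt3a loss in CMP/GMP, 3 in MEP, 2 in c-kit+ cells, 4 for DKO against Sting knockout and 1 for the interaction. Among populations DESeq2 called 20 (wild-type LT to CMP/GMP), 9 (CMP/GMP to MEP), and in the knockout 4 and 22 for these comparisons. Without a filter on low counts c-kit+ calls were 3 for Dnmt3a loss, 2 for Sting loss, 5 for DKO against Sting knockout and 1 for the interaction. Fitting only the groups compared gave 5 for Dnmt3a loss in c-kit+ cells. Scaling by library totals gave 7 (wild-type LT to CMP/GMP), 22 (LT to MEP), and in the knockout 21 (LT to MEP) and 4 (CMP/GMP to MEP). It moved the median of all genes from -0.09 to -0.27, -0.17 to -0.38, -0.12 to -0.46 and -0.16 to -0.34. DESeq2 size factors in edgeR moved that median to -0.19 from LT to CMP/GMP in wild type. One fit over 23 sorted libraries gave 6 and 18 in wild type and 3 from LT to CMP/GMP in the knockout.

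Leaving out the short-profile libraries gave 37, 63 and 6 in wild type (LT to CMP/GMP, LT to MEP, CMP/GMP to MEP) and 32 and 1 in the knockout (LT to CMP/GMP, CMP/GMP to MEP). A term for the profile gave 36, 63 and 6, and 12 and 0. Summing MEP Dnmt3a knockout 3 with 4 and CMP/GMP wild-type 2 with 4 gave 7 (wild-type LT to CMP/GMP), 18 (knockout LT to MEP) and 0 (knockout CMP/GMP to MEP).

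Same-numbered libraries did not deviate together throughout (r from -0.30 to 0.45), and the main tests did not take the numbers as pairs. Between wild-type LT and CMP/GMP, however, each number correlated best with its own (r of 0.24, 0.14, 0.092 and 0.079). So did numbers 1 and 3 of both with MEP wild-type, but not number 4. In the knockout some numbers did and others did not. Whether same-numbered libraries share an animal or batch was not tested. With the replicate block the count was 5 from CMP/GMP to MEP in the knockout, and it stayed within 1.5 times elsewhere. With crossed c-kit+ wild-type numbers the block gave 4 for DKO against Sting knockout.

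Leaving out 1 library at a time gave 6 to 37, 17 to 63 and 1 to 6 in wild type, 0 to 3, 15 to 41 and 0 to 32 in the knockout, 0 to 33 for Dnmt3a loss in MEP, 0 to 7 for its difference between populations, and 0 to 1 both for Sting loss and for DKO against Sting knockout. Over single named genes, 748 values kept their direction and side of the threshold and 190 were no longer past it. Without mitochondrial DNA and haemoglobin reads the members' share was 0.770% in Dnmt3a knockout and 0.906% in Sting knockout c-kit+ cells. The cause of these differences was not tested. Groups of 2 to 4 libraries limit what could be called.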
